A study of Mus musculus with 17 samples.

Results

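The genes described here are the 3 D-type cyclins (Ccnd1, Ccnd2 and Ccnd3), the kinase Cdk6 and 6 genes for inhibitors of cyclin-dependent kinases (Cdkn1a, Cdkn1b, Cdkn1c, Cdkn2a, Cdkn2b and Cdkn2c). They were taken by name, with the transcripts of each gene summed by gene symbol. They are 10 of the 53588 gene symbols in the data, and all 10 passed the filter on low counts that left 19796 genes for testing. Poly(A) RNA was sequenced from 5 lines of mouse embryonic stem cells, named iFoxA1, iFoxC1, iFoxG1, iFoxL2 and iFoxP3. All 5 derive from MC1 cells of strain 129S6/SvEvTac, and each carries, at the Rosa26 locus, the coding sequence of 1 forkhead factor that carries His6-FLAG at its C-terminal end, beside a puromycin resistance gene. Doxycycline (Dox) holds the transgene off. The 6 libraries at 0 h came from cells kept in medium with 15% serum, LIF at 1000 U/ml, Dox at 0.2 µg/ml and puromycin (2 libraries of iFoxA1 and 1 of each other line). The 11 libraries at 24 h came from cells washed free of Dox and grown in differentiation medium with 10% serum (3 of iFoxA1 and 2 of each other line). No line without a transgene was analysed here, so the induced factor, the absence of Dox and the new medium cannot be told apart in what changed from 0 h to 24 h. A difference between lines in that change does not contain what the lines share. Nothing in the labels ties replicates to different cultures. The p-values therefore rest on library-to-library spread alone, which may be technical.

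D cyclins bind the kinases CDK4 and CDK6, and the active complexes phosphorylate the retinoblastoma protein, which frees E2F factors to switch on genes for DNA synthesis. The CIP/KIP inhibitors p21 (Cdkn1a), p27 (Cdkn1b) and p57 (Cdkn1c) bind whole cyclin-kinase complexes, and the INK4 inhibitors p16 and p15 (Cdkn2a and Cdkn2b) and p18 (Cdkn2c) bind CDK4 and CDK6 and keep D cyclins off them. Mouse embryonic stem cells are known for a short G1 phase and for weak control of it by the retinoblastoma protein, and G1 lengthens as they differentiate.

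Total estimated counts were 17.7 to 22.2 M in 12 libraries, called the first set here, and 32.9 to 37.2 M in 5 libraries at 24 h, called the second set. The second set holds iFoxA1 replicate 3 and replicate 2 of each other line. The labels name no batch, and no library of the second set is at 0 h. The induced factor was higher at 24 h in the 4 lines for which it is given: from 1.87 and 3.05 CPM (counts per 1000000 counts of the library) of Foxa1 at 0 h to 236, 252 and 76.8 CPM at 24 h, from 1.94 to 274 and 289 CPM of Foxc1, from 1.14 to 149 and 11.5 CPM of Foxl2, and from 0.645 to 218 and 247 CPM of Foxp3. The lowest induced libraries, iFoxA1 replicate 3 and iFoxL2 replicate 2, stood apart. Markers of embryonic stem cells (10 genes) summed to 5213 to 6625 CPM at 0 h and 2936 to 6478 CPM at 24 h, with none at 0 in any library. At 24 h the sum was 6302 CPM in iFoxA1 replicate 3 and 6478 CPM in iFoxL2 replicate 2, within the 0 h range. In all other 24 h libraries it was lower than at 0 h, at 2936 to 4592 CPM. Fibroblast markers, which would mark feeder cells, summed to 10.2 to 17.7 CPM at 0 h and 10.2 to 24.7 CPM at 24 h over 12 genes, with up to 4 of them at 0. In bulk RNA, fewer cells of a type and less RNA per cell cannot be told apart.

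In the GENCODE M21 annotation of mm10, the D cyclins are Ccnd1 at chr7:144929931-144939925, Ccnd2 at chr6:127125162-127152193 (both on the minus strand) and Ccnd3 at chr17:47505051-47599691 (plus), and the kinase is Cdk6 at chr5:3341485-3531008 (plus). The CIP/KIP genes are Cdkn1a at chr17:29090976-29100727, Cdkn1b at chr6:134920401-134925513 (both plus) and Cdkn1c at chr7:143458339-143461050 (minus). The INK4 genes all lie on the minus strand of chromosome 4, Cdkn2a at chr4:89274471-89294653, Cdkn2b at chr4:89306299-89311039 and Cdkn2c at chr4:109660876-109667189. Several members start at more than 1 site, and the deposited transcripts separate these starts. The DNA just before the starts that matter is printed here, because the share of reads from each start is given below. Sequences are from RefSeq (GRCm38.p6), where 7 of the 10 members matched. Ccnd1, Ccnd2 and Cdkn1c were not among them. Each runs 5′ to 3′ on the strand of the gene, begins 250 bases before the RefSeq start and stops before the annotated exon. Capitals mark the forkhead letters TGTTTAC, the E2F-like letters TTTNNCGC, the GC box GGGCGG or a pair of CATG cores spaced by 6 bases, as in p53 sites, each searched on both strands.
Cdkn2a, start of the p19Arf transcript, minus strand, chr4:89294654-89294869: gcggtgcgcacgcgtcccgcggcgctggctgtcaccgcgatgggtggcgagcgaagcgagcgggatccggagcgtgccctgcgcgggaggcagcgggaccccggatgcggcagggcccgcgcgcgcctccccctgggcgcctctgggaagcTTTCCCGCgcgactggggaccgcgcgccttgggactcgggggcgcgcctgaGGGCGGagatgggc
Cdkn2a, start of the p16Ink4a transcript, minus strand, chr4:89282193-89282442: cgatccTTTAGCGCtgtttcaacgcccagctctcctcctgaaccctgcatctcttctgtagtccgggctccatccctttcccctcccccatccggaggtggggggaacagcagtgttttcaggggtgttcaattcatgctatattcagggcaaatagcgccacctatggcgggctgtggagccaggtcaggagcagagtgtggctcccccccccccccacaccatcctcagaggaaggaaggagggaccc
Cdkn1a, upstream start, plus strand, chr17:29090729-29090975: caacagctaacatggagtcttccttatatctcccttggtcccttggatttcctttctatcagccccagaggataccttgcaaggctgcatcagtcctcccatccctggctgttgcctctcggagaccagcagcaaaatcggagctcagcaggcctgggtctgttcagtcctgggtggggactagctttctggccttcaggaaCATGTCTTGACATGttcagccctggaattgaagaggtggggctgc
Cdkn1a, main start, plus strand, chr17:29093519-29093768: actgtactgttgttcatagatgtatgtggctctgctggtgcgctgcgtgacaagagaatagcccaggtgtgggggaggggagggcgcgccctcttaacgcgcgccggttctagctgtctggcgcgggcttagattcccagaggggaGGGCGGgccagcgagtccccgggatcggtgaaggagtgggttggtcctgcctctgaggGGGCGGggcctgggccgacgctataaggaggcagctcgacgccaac
Ccnd3, upstream start, plus strand, chr17:47504801-47505050: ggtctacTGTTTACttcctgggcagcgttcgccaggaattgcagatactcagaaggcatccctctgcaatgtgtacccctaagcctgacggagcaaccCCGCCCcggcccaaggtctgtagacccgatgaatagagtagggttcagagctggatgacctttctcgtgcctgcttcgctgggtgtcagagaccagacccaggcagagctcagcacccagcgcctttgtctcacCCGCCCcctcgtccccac
Ccnd3, internal start, plus strand, chr17:47593217-47593435: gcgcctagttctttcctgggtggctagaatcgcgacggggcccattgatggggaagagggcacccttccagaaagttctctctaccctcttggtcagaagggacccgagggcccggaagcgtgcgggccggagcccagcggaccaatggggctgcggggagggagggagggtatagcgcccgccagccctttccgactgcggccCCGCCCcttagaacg

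The starts differ in base composition. The 250 bases before the Arf start hold 40 CpG dinucleotides, more than 98.7% of the 32851 promoters of the same length, while those before the Ink4a start hold 7, near the median of 6. The main start of Cdkn1a has 19 and its upstream start 2, and for Ccnd3 the internal start has 19 and the upstream start 11. Of the motifs, the E2F-like letters stand before both Cdkn2a starts, before the Cdk6 start (not printed) and in 4.28% of all promoters. The CATG pair stands before the upstream Cdkn1a start and in 0.49% of all promoters. This pair was searched after the sequence had been read. The forkhead letters occur in 3.17% of all promoters and, among the 11 promoters of members, only before the upstream Ccnd3 start, and the GC box in 32.7%. A match is a description of the letters and not a bound site.

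Across the 5 lines weighted equally, 7 of the 10 members changed between 0 h and 24 h. Ccnd1, Ccnd2, Cdkn1c, Cdkn2a and Cdkn2b rose, and Cdk6 and Cdkn1a fell. Ccnd3, Cdkn1b and Cdkn2c did not pass the threshold, an adjusted p under 0.05 by edgeR's quasi-likelihood test with Benjamini-Hochberg adjustment over all 19796 genes. The same contrast called 37.8% of all genes (21.7% rose and 16.1% fell), so change as such was common. The largest average changes were of inhibitors and of the least abundant cyclin: log2 1.94 ± 0.14 (SE) for Cdkn1c (adjusted p = 1.3e-05), 1.93 ± 0.23 for Ccnd2 (adjusted p = 0.00024), 1.72 ± 0.42 for Cdkn2b (adjusted p = 0.01) and 1.56 ± 0.17 for Cdkn2a (adjusted p = 0.00017). Leaving out iFoxG1 0 h replicate 1, and with it that line, gave 6 members called.

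**Figure D1:**
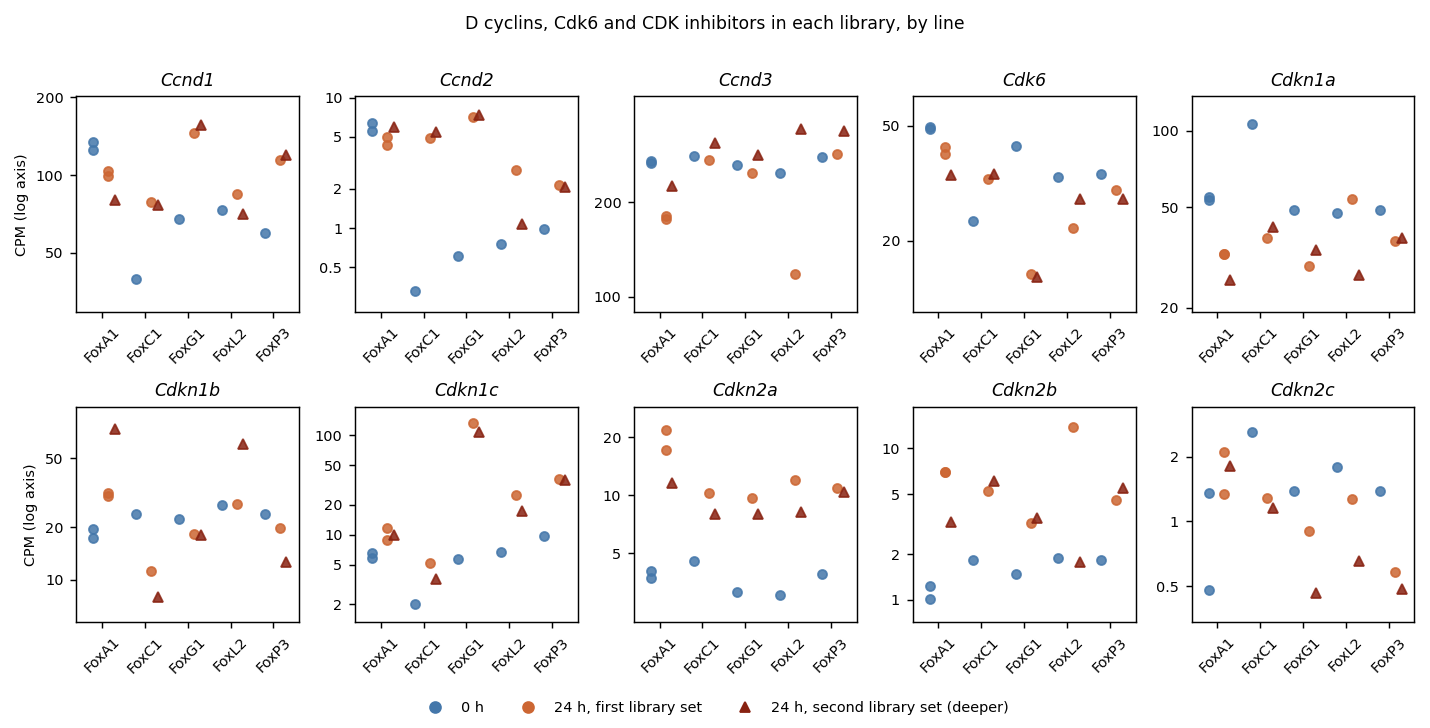
Level of each member in each of the 17 libraries, in CPM on a log axis, by line: circles are libraries of the first set (blue at 0 h, orange at 24 h) and triangles the deeper second set at 24 h. Cdkn2a is higher in all 11 libraries at 24 h than in any at 0 h, and Cdkn1c reaches 131 and 107 CPM in iFoxG1.

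The size of the change depended on the line for 4 members. The 5 changes differed by line for Cdkn1c (adjusted p = 0.018), Ccnd1 (0.022), Cdk6 (0.042) and Ccnd2 (0.046), where 1% of all genes tested were called (edgeR F test). This count depended on single libraries. It was 0 without any 1 of iFoxA1 0 h replicate 1 or 2, iFoxA1 24 h replicate 1, iFoxG1 24 h replicate 1 or 2 and iFoxP3 24 h replicate 1. It was 1 without iFoxG1 0 h replicate 1, iFoxA1 24 h replicate 2, iFoxC1 24 h replicate 1 or 2 or iFoxP3 24 h replicate 2, and 2 without iFoxC1 0 h replicate 1. Within single lines, 1 member was called in iFoxA1, 3 in iFoxC1, 4 in iFoxG1 and 2 each in iFoxL2 and iFoxP3, beside 10.8%, 9.73%, 5.64%, 4.23% and 6.05% of all genes. The iFoxA1 count was 6 under DESeq2, 5 with the set of libraries in the fit, and 8 in the first set only or without both libraries of low transgene level. Those last settings gave 8 and 8 in iFoxC1, 7 and 7 in iFoxG1, 8 and 6 in iFoxL2, and 6 and 5 in iFoxP3. The counts were 5 in iFoxA1 without either iFoxL2 24 h library, 1 in iFoxC1 without its 24 h replicate 2, and 4 in iFoxP3 without either iFoxL2 24 h library. Without iFoxP3 24 h replicate 1 or 2 the iFoxP3 count was 0 or 1. The iFoxL2 count was 5 without its own 24 h replicate 2, 0 without either iFoxA1 0 h library, and 1 without any 1 of 8 other 24 h libraries (iFoxA1 replicates 1 and 2 and both of iFoxC1, iFoxG1 and iFoxP3). Only iFoxA1 has more than 1 library at 0 h, so in the other 4 lines the lone 0 h library is assumed to vary like the other groups. In the first set only, every group outside iFoxA1 is a single library, so the counts of that setting rest on the spread of iFoxA1 alone.

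**Figure D2:**
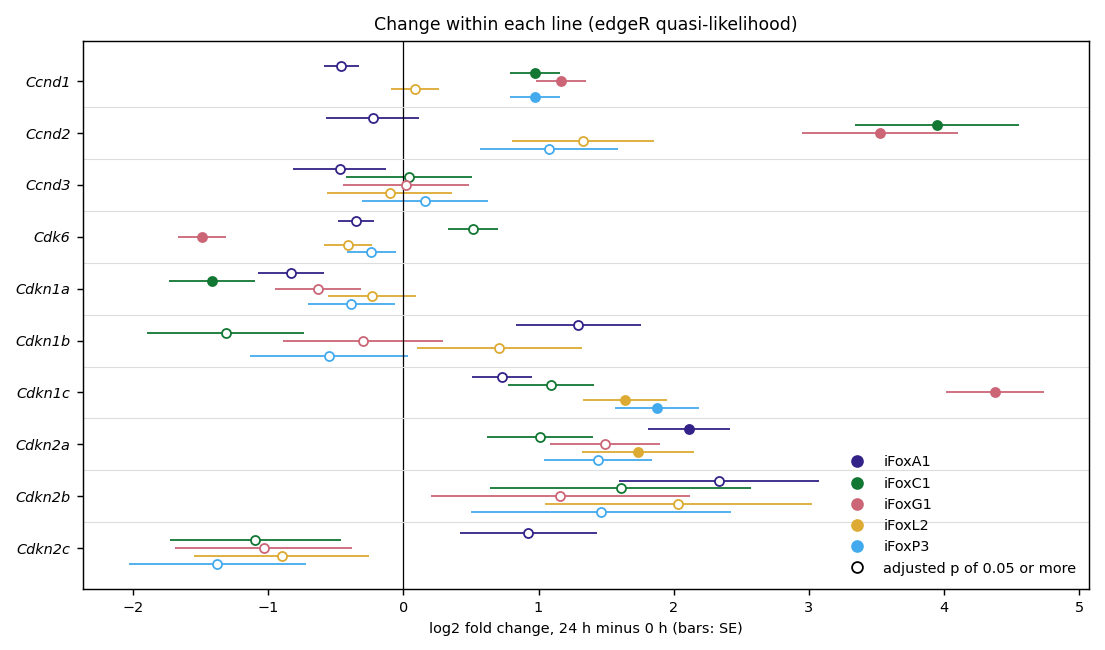
Within-line change of the 10 members, 24 h against 0 h, as log2 fold change with its SE (bars), one colour per line; filled points have an adjusted p under 0.05 (edgeR). Cdkn1c in iFoxG1 lies farthest to the right at 4.38, and Cdk6 in iFoxG1 is the farthest to the left among the filled points at -1.49.

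Ccnd3 was by far the most abundant D cyclin. Per transcript length, it held 81.4 to 93.1% of the D-cyclin TPM (transcripts per 1000000 after scaling by length) at 0 h and 72.6 to 86.1% at 24 h. Ccnd1 held 6.7 to 18% at 0 h and 13.3 to 26.9% at 24 h, and Ccnd2 never more than 1.53%. The 26.9% was in iFoxG1 replicate 2, of the second set. In that set a retained-intron transcript of Ccnd1 reached 27.9 TPM, against at most 0.74 TPM in the first set at 24 h. In the first set alone the Ccnd1 share at 24 h was 13.3 to 26.4%. The summed D-cyclin level had a median of 181 TPM at 0 h (153.8 to 264) and 204 TPM at 24 h (119 to 254), so the ranges of the 2 times overlapped.

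Ccnd1, a classic target of mitogen signals, showed a pattern by line. In iFoxA1 it was 134 and 125 CPM at 0 h and 104, 99.0 and 80.3 CPM at 24 h. In iFoxC1 it went from 39.5 CPM to 78.4 and 76.6 CPM, and in iFoxG1 from 67.4 CPM to 146 and 157 CPM. In iFoxP3 it went from 59.8 CPM to 115 and 119.9 CPM, and in iFoxL2 from 72.9 CPM to 84.1 and 70.5 CPM. Thus every 24 h library was above its 0 h library in 3 lines, below it in iFoxA1, and on both sides in iFoxL2. The change passed the test in iFoxC1 (log2 0.97 ± 0.19, 1.96-fold, adjusted p = 0.013), iFoxG1 (1.17 ± 0.19, 2.25-fold, adjusted p = 0.0092) and iFoxP3 (0.97 ± 0.19, 1.96-fold, adjusted p = 0.019). In iFoxA1 it was -0.46 ± 0.13 (adjusted p = 0.055; called under DESeq2, with the set of libraries in the fit and without either iFoxL2 24 h library), and it differed from the mean change of the other 4 lines by -1.26 ± 0.16 (adjusted p = 0.0051). That line-specific test called 3 members, Ccnd1, Ccnd2 and Cdkn1c, all with a lower change in iFoxA1, where it called 3.09% of all genes. It called 0 members without iFoxA1 0 h replicate 1 and 1 without iFoxA1 0 h replicate 2 or 24 h replicate 1. The single-line calls of Ccnd1 were lost without replicate 2 at 24 h in iFoxC1 (adjusted p = 0.072) and in iFoxG1 (0.0522), and without either 24 h library in iFoxP3 (0.0654 and 0.0805).

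The lines also differed before induction. In CPM the 2 iFoxA1 libraries at 0 h had the highest Ccnd1 and the highest Ccnd2 of all 0 h libraries. In TPM the highest Ccnd2 at 0 h was in iFoxG1, at 2.62 from 12 counts, against 1.5 and 2.31 in iFoxA1. Primitive endoderm markers (8 genes, none at 0 in any library) summed to 515 and 524 CPM in these 2 libraries and to 53 to 75.3 CPM in the other 0 h libraries. Their part in the 0 h difference and in the iFoxA1-specific changes was not tested. Levels at 0 h differed among lines for Ccnd1 (adjusted p = 0.022) and Ccnd2 (0.026), while 0.495% of all genes were called, with 2 members. That count was 0 without any 1 of the following (all 0 h libraries of iFoxA1 and iFoxC1, iFoxA1 24 h replicate 2, and all 24 h libraries of iFoxC1, iFoxG1 and iFoxP3), 1 without iFoxA1 24 h replicate 1 and 5 without either iFoxL2 24 h library. At 24 h the order of Ccnd1 was iFoxG1, iFoxP3 and iFoxA1, then iFoxC1 and iFoxL2. The iFoxG1 and iFoxP3 ranges were apart from each other and from the rest, iFoxA1 overlapped iFoxL2, and iFoxC1 overlapped iFoxL2.

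Ccnd2, a D cyclin with a more restricted tissue distribution, was scarce. In iFoxC1 it went from 0.332 CPM, which is 7 estimated counts, to 4.91 and 5.48 CPM, and in iFoxG1 from 0.617 CPM to 7.05 and 7.29 CPM. In iFoxL2 it went from 0.757 to 2.8 and 1.07 CPM, and in iFoxP3 from 0.993 to 2.13 and 2.08 CPM. In iFoxA1 it was 5.55 and 6.39 CPM at 0 h and 5.01, 4.35 and 5.91 CPM at 24 h. All 24 h libraries therefore exceeded the 0 h library in 4 lines, and the iFoxA1 ranges overlapped. The change was log2 3.95 ± 0.60 in iFoxC1 (15.4-fold, adjusted p = 0.0056) and 3.53 ± 0.58 in iFoxG1 (11.5-fold, adjusted p = 0.0095), and the iFoxA1 change was lower than the mean of the others by 2.70 ± 0.43 (line-specific log2 change -2.70, adjusted p = 0.015). The latter was not called without either iFoxA1 0 h library (adjusted p = 0.0896 and 0.117) or iFoxA1 24 h replicate 1 or 2 (0.0552 and 0.0535). Values this low rest on few counts, and the pattern depends on the scale in iFoxG1, iFoxL2 and iFoxA1. In iFoxG1 the deposited TPM of Ccnd2, summed over its transcripts, was 2.62 at 0 h, from 12 counts, and 1.54 and 1.24 at 24 h. In iFoxL2 it was 0.218 and then 0.624 and 0.192, and in iFoxA1 1.5 and 2.31 and then 1.08, 1.09 and 0.947. In iFoxC1 it was 0.443 at 0 h and 1.29 and 1.38 at 24 h, and in iFoxP3 0.158 and then 0.474 and 0.994.

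Ccnd3 was not called. It lay between 248 and 281 CPM in the 6 libraries at 0 h and between 118 and 343 CPM at 24 h. Its average change was log2 -0.07 ± 0.20 (adjusted p = 0.82). Both extremes at 24 h are iFoxL2, replicate 1 at 118 CPM and replicate 2 at 343 CPM. In the first library set only iFoxA1 has more than 1 library per time, so the spread in that fit is that of iFoxA1 alone. There the average change of Ccnd3 was -0.35, and without the 2 libraries of low transgene level it was -0.28. It was -0.27 (adjusted p = 0.0302) without iFoxL2 24 h replicate 2 and 0.05 without iFoxL2 24 h replicate 1. The internal start printed above (Ccnd3-205, beginning at base 47593470) gave 89.9 to 96.3% of Ccnd3 counts in all libraries, so all other Ccnd3 transcripts, those of the upstream start among them, gave the small remainder.

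Cdk6, which beside Cdk4 is a kinase partner of D cyclins, fell in iFoxG1. It went from 42.5 CPM to 15.4 and 15 CPM there, a log2 change of -1.49 ± 0.18 (adjusted p = 0.0024). In iFoxA1 it was 49.7 and 48.9 CPM at 0 h and 42.4, 40 and 33.8 CPM at 24 h. In iFoxL2 it was 33.2 CPM and then 22.1 and 27.9 CPM, and in iFoxP3 34.1 CPM and then 30 and 27.8 CPM. In iFoxC1 alone the 24 h values were higher, 32.8 and 34 CPM against 23.4 CPM. Every 24 h library was thus lower than at 0 h in 4 lines and higher in 1. The iFoxG1 change stood below the mean of the other lines by -1.37 ± 0.20 (adjusted p = 0.049), where 0.111% of all genes were called, and the iFoxC1 change above it by 1.14 ± 0.21 (adjusted p = 0.041), where 1.08% were called. Both of these calls are close to the threshold, and each was lost without any 1 of 10 libraries, both of iFoxA1 at 0 h, its replicates 1 and 2 at 24 h, and both of iFoxC1, iFoxG1 and iFoxP3 at 24 h. The iFoxG1 call was also lost without iFoxC1 0 h replicate 1, and the iFoxC1 call without the 0 h library of iFoxG1 or of iFoxL2. The average change, -0.39 ± 0.08 (adjusted p = 0.0035), was -0.13 and not called without iFoxG1 0 h replicate 1.

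The make-up of the CIP/KIP family changed to an extent that differed by line. At 0 h Cdkn1a held a median of 65.1% (59.2 to 83.3%) of the family's TPM, and at 24 h a median of 36.4% (13 to 78.9%). In iFoxG1 its share went from 64.8% to 13 and 16.4%, and in iFoxC1 from 83.3% to 69.2 and 78.9%. Cdkn1c held a median of 12.3% at 0 h and 26.5% at 24 h, with a highest share of 80.1%. The family's summed level had a median of 54.3 TPM at 0 h (43.8 to 83.6) and 55.7 TPM at 24 h (27.7 to 167). These near-equal medians hide opposite moves by line. In iFoxG1 the sum went from 44.1 TPM to 167 and 110 TPM, and in iFoxC1 from 83.6 TPM to 37.7 and 27.7 TPM.

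**Figure D3:**
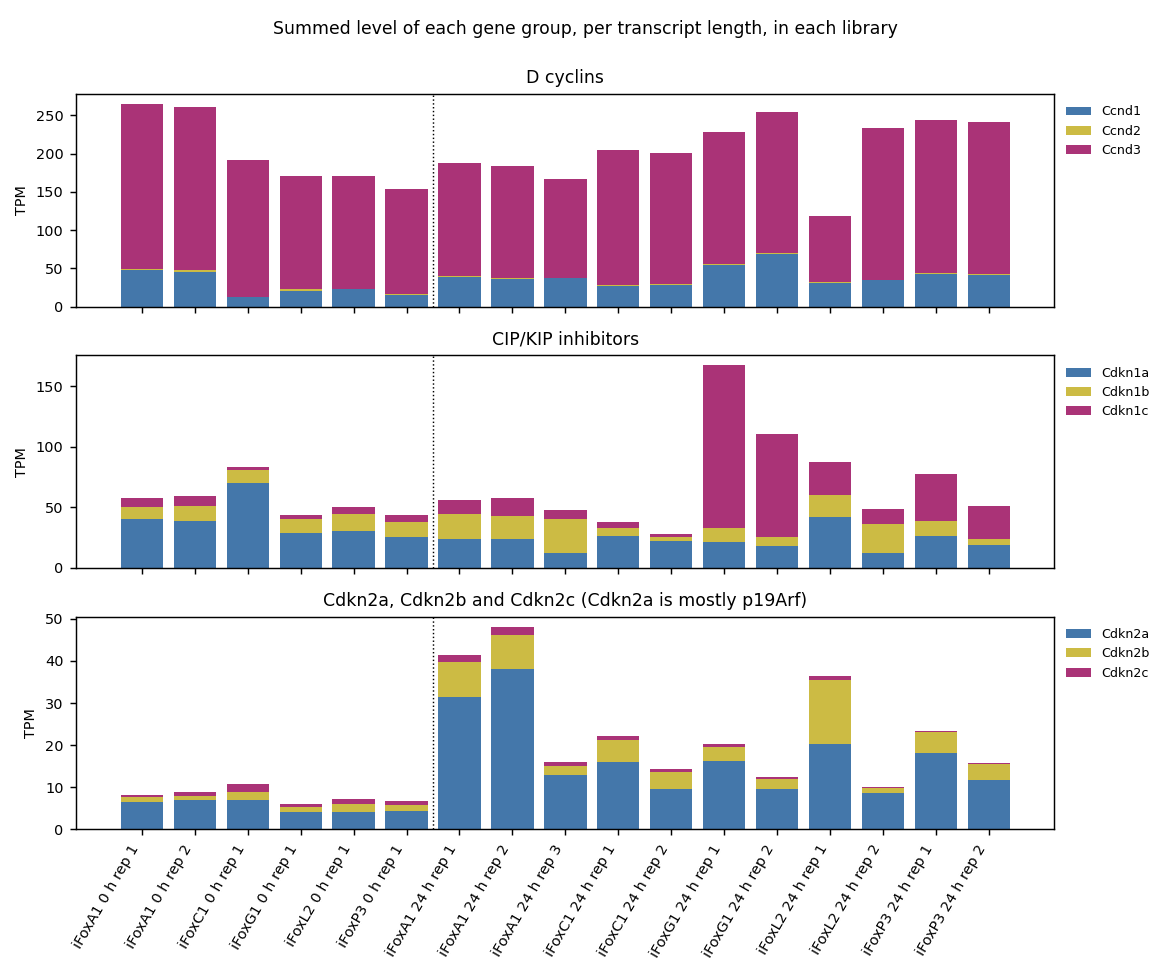
Summed TPM of the D cyclins, the CIP/KIP inhibitors and the 3 Cdkn2 genes in each of the 17 libraries, stacked by gene; the dotted line divides 0 h from 24 h. Ccnd3 fills most of the D-cyclin bars, and Cdkn1c fills most of the iFoxG1 bars at 24 h. The Cdkn2 sum, most of it p19Arf RNA, has a median of 7.6 TPM at 0 h and 20.3 TPM at 24 h. At 24 h this sum is 20.3 to 48.2 TPM in the first library set and 10 to 16 TPM in the second.

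Cdkn1c, the imprinted gene of p57, rose in 3 lines. In iFoxG1 it went from 5.7 CPM to 131 and 107 CPM, log2 4.38 ± 0.36 (20.8-fold, adjusted p = 0.00042). In iFoxP3 it went from 9.73 to 36.3 and 35.3 CPM (log2 1.88 ± 0.31, adjusted p = 0.012), and in iFoxL2 from 6.76 to 25 and 17.3 CPM (1.64 ± 0.31, adjusted p = 0.024). In iFoxC1 it was 2.04 CPM and then 5.16 and 3.6 CPM (1.09 ± 0.32, adjusted p = 0.061), and in iFoxA1 5.79 and 6.53 CPM and then 8.93, 11.8 and 9.99 CPM (0.73 ± 0.22, adjusted p = 0.066). The iFoxL2 call was lost without either iFoxA1 0 h library (adjusted p = 0.0507 and 0.0508) and the iFoxP3 call without iFoxP3 24 h replicate 1 (0.0506). All 24 h libraries were above the 0 h libraries of their own line in all 5 lines, and 3 of the 5 changes passed the test. The iFoxA1 and iFoxC1 changes were also called under DESeq2, with the set of libraries in the fit, in the first set only, and without either iFoxL2 24 h library. At 24 h the order of the 5 lines by mean CPM was iFoxG1, iFoxP3, iFoxL2, iFoxA1 and iFoxC1. In TPM iFoxL2 (27.7 and 12.1) overlapped both iFoxP3 (38.9 and 27.3) and iFoxA1 (6.91 to 15.4). The difference among lines at 24 h had an adjusted p of 3.1e-05, in a comparison that called 5 members (Ccnd1, Ccnd2, Cdk6, Cdkn1b and Cdkn1c) and 13.1% of all genes. That count was 3 without either iFoxA1 0 h library, iFoxA1 24 h replicate 1, or any 24 h library of iFoxC1, iFoxG1 or iFoxP3. The iFoxG1 change exceeded the mean of the other lines by 3.04 ± 0.35 (adjusted p = 0.018), a call lost at adjusted p of 0.0515 to 0.103 without either library of iFoxA1 at 0 h, of iFoxG1 at 24 h or of iFoxP3 at 24 h. The iFoxA1 change lay below that mean by -1.52 ± 0.26 (adjusted p = 0.02), which was not called without either iFoxA1 0 h library, iFoxA1 24 h replicate 1 or iFoxG1 0 h replicate 1 (-0.78). The line-specific tests of iFoxL2 and iFoxP3 called 0 members by edgeR and 0 by DESeq2, with 1 member in each at an unadjusted p under 0.05, where they called 0.00505% and 0% of all genes.

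Cdkn1c lies in a cluster of imprinted genes on distal chromosome 7. Of 11 neighbours, 9 were tested, and 4 rose on average: Tspan32 (log2 1.21 ± 0.15), Osbpl5 (2.51 ± 0.32), Ascl2 (2.16 ± 0.33) and Phlda2 (0.52 ± 0.16). None fell. The median of the 9 was 0.03, near the 0.04 of all genes. Kcnq1ot1, the noncoding RNA that silences the cluster on the paternal copy, had a log2 change of -0.06 ± 0.23 (adjusted p = 0.88), with 10.9 to 27.6 CPM at 0 h and 9.29 to 33.6 CPM at 24 h.

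Cdkn1a, the p53 target p21, fell on average by log2 0.70 (-0.70 ± 0.14, adjusted p = 0.0035). It was 54.8 and 53.1 CPM in iFoxA1 at 0 h against 32.5, 32.7 and 25.8 CPM at 24 h. In iFoxC1, which had the highest 0 h level, it fell from 106 to 37.8 and 41.8 CPM (-1.42 ± 0.31, adjusted p = 0.024), the only single line in which the change was called. Nanog was 1312 CPM in that 0 h library and 579 to 656 CPM in the other 0 h libraries, and its part in the fall was not tested. The iFoxA1 change was called under DESeq2, with the set of libraries in the fit and without either iFoxL2 24 h library. The iFoxC1 call was lost without either iFoxC1 24 h library (adjusted p = 0.099 and 0.0968). In iFoxG1 it was 48.7 and then 29.1 and 33.8 CPM, and in iFoxP3 48.6 and then 36.7 and 37.8 CPM. The exception was iFoxL2, at 47.3 CPM and then 53.8 and 26.9 CPM, where the 2 replicates lay on either side of the 0 h value. Reads came mainly from the main start (Cdkn1a-201, 92.8 to 95.8% of Cdkn1a counts at 0 h) and rarely from the upstream start beside the CATG pair (Cdkn1a-202, 0 to 5.28% in all libraries). In the second set Cdkn1a-201 held 62.9 to 75.1% and Cdkn1a-205, which begins 12 bases away, 18.6 to 31.2%, against at most 3.1% in the first set. The make-up of Cdkn1a transcripts therefore moved with the library set.

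Other genes of the p53 pathway moved in both directions. Of 20 tested, 9 rose, 3 fell and 8 were not called, where 21.7% of all genes rose and 16.1% fell. The median of the 20 was 0.40, against 0.04 for all genes. The 4 with the smallest adjusted p were Gadd45a, a growth-arrest gene (log2 1.63 ± 0.14), Tigar, a regulator of sugar metabolism (-1.46 ± 0.13), Pmaip1, which encodes the pro-death protein Noxa (1.5 ± 0.14), and Sesn1, a stress sensor (-0.69 ± 0.09). Trp53 itself rose by 0.57 ± 0.13 (adjusted p = 0.0078), from 165 to 284 CPM at 0 h to 263 to 491 CPM at 24 h.

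Cdkn1b, the gene of p27, differed widely between replicates of iFoxA1 and iFoxL2. Its average change was log2 -0.03 ± 0.25 (adjusted p = 0.95), and its sign depended on the libraries kept. In iFoxA1 it was 17.3 and 19.7 CPM at 0 h and 31.7, 30.4 and 74.1 CPM at 24 h, and in iFoxL2 26.8 CPM and then 27.2 and 60.5 CPM. In iFoxC1 it was 23.8 CPM and then 11.2 and 7.96 CPM, in iFoxG1 22.4 and then 18.3 and 18.1 CPM, and in iFoxP3 23.9 and then 20 and 12.7 CPM. Every 24 h library was thus above 0 h in iFoxA1 and iFoxL2 and below it in the other 3 lines. No single line's change passed the test. Within the first library set only, where the spread comes from iFoxA1 alone, the average change was -0.17. The changes of iFoxA1 and iFoxC1 were called there, the latter on a single library at each time, and without both libraries of low transgene level. The iFoxA1 change was also called by DESeq2. The values of 74.1 and 60.5 CPM are the 2 libraries with low transgene levels, iFoxA1 replicate 3 and iFoxL2 replicate 2. Nanog, a naive pluripotency gene, was at 297 and 209 CPM in those 2 libraries. It was 50.0 to 51.2 CPM in the other iFoxA1 libraries at 24 h and 94.2 CPM in the other iFoxL2 library. Nanog was also 284 and 227 CPM in the iFoxC1 libraries at 24 h, which had the lowest Cdkn1b, and 579 to 1312 CPM at 0 h. The part of the state of the 2 libraries with low transgene levels in the Cdkn1b values was not tested. Levels at 24 h differed among lines (adjusted p = 0.035), a call lost without either iFoxA1 0 h library, iFoxA1 24 h replicate 1, or any 24 h library of iFoxC1, iFoxG1 or iFoxP3.

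The 3 Cdkn2 genes were scarce at 0 h, and Cdkn2a and Cdkn2b rose. Their summed level was mostly the p19Arf transcript of Cdkn2a described below. It had a median of 7.6 TPM at 0 h (6.08 to 10.7) and 20.3 TPM at 24 h (10 to 48.2). The 24 h values split by library set, at 20.3 to 48.2 TPM in the first and 10 to 16 TPM in the second. Cdkn2a as a whole gene gave a median of 66.7% of the summed level at 0 h and 76.6% at 24 h. Counting only transcripts of INK4 proteins (the p16Ink4a transcript, Cdkn2b and Cdkn2c), the sum had a median of 2.41 TPM at 0 h (1.99 to 4.21) and 5.43 TPM at 24 h (1.8 to 17.5), with overlapping ranges. Only libraries of the second set lay within or below the 0 h range. Within this sum, Cdkn2b was 1.15 to 1.85 TPM at 0 h. At 24 h it was 3.46 to 15.3 TPM in the first set and 1.1 to 4.16 TPM in the second. Cdkn2a was the only member whose 0 h and 24 h libraries did not overlap across all lines, which held for 8.7% of all genes.

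Cdkn2a was between 3.03 and 4.55 CPM (median 3.82) in the 6 libraries at 0 h and between 7.96 and 21.8 CPM (median 10.4) in the 11 at 24 h. The highest values were in iFoxA1, at 17.3, 21.8 and 11.7 CPM against 3.73 and 4.07 CPM at 0 h, log2 2.11 ± 0.30 (4.33-fold, adjusted p = 0.0024). In iFoxL2 it went from 3.03 to 12.1 and 8.18 CPM (1.74 ± 0.41, adjusted p = 0.049), a call kept in 5 of the 16 runs that left out 1 library. It was lost without iFoxL2 24 h replicate 1 (1.43), either iFoxA1 0 h library, iFoxA1 24 h replicate 1 or 2, or any 24 h library of iFoxC1, iFoxG1 or iFoxP3. The change did not pass in iFoxG1 (3.13 CPM, then 9.72 and 7.96 CPM, adjusted p = 0.066), iFoxP3 (3.92 CPM, then 10.9 and 10.4 CPM, 0.068) and iFoxC1 (4.55 CPM, then 10.3 and 8.02 CPM, 0.14). With the set of libraries held in the fit, all 3 were called, and with the replicate block or under DESeq2 those of iFoxG1 and iFoxP3. Within every line, both times stayed apart. At 24 h Cdkn2a was lower in the second library set than in the first by log2 -0.44 ± 0.13 (adjusted p = 0.046), the 1 member called in a comparison that called 20.9% of 18032 genes. This call was lost without any 1 of the 11 libraries at 24 h. Without either iFoxL2 library the 1 member called was Ccnd3. In a fit that held the library set its average change was 1.75.

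Cdkn2a encodes 2 unrelated proteins from separate first exons: p16Ink4a, which inhibits CDK4 and CDK6, and p19Arf, which blocks MDM2 and so stabilises p53. Nearly all reads were assigned to the Arf start. Cdkn2a-202, which begins at base 89294653 of chromosome 4, held 91.4 to 100% of the gene's counts at 0 h, 93.6 to 97.9% in the first set at 24 h and 93.5 to 100% in the second. Cdkn2a-201, which begins at the Ink4a start at base 89282192, held 0 to 8.62% at 0 h and 0 to 6.54% at 24 h. Its counts summed to 18.6 over the 6 libraries at 0 h. The 2 transcripts share their later exons, so these shares are Salmon's assignments. By this assignment the higher level of Cdkn2a at 24 h lay in transcripts from the CpG-rich start, and the Ink4a transcript was at no more than 2.17 TPM.

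**Figure D4:**
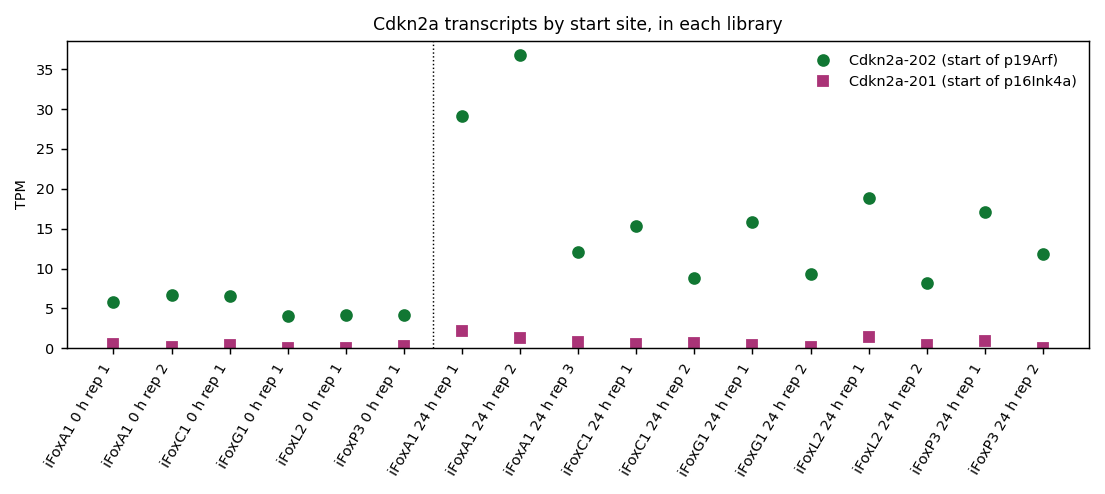
TPM of the Cdkn2a transcripts starting at the p19Arf first exon (circles) and at the p16Ink4a first exon (squares) in each of the 17 libraries; the dotted line divides 0 h from 24 h. The Arf transcript is 4.09 to 6.68 TPM at 0 h. At 24 h it is 15.3 to 36.7 TPM in the first library set and 8.22 to 12.1 TPM in the second. The Ink4a transcript stays at or under 2.17 TPM.

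Cdkn2b, the neighbour of Cdkn2a and the gene of p15, a known target of TGF-beta signals, lay between 1.02 and 1.89 CPM at 0 h. In iFoxA1 at 24 h it was 6.94, 7.04 and 3.25 CPM, and in iFoxC1 5.21 and 6.07 CPM. In iFoxG1 it was 3.22 and 3.46 CPM, and in iFoxP3 4.6 and 5.52 CPM. In iFoxL2 it was 13.8 and 1.79 CPM, the highest and the lowest value at 24 h, against 1.89 CPM at 0 h. The average change was 1.72 ± 0.42 (adjusted p = 0.01), and no single line's change passed the test, though that of iFoxA1 was called under DESeq2, with no filter and with the set of libraries in the fit. Of 4 neighbours of the pair, 3 were tested, and 1 of them, Elavl2, fell (-0.58 ± 0.16, adjusted p = 0.020), while Mtap was at 0.20 ± 0.15 (adjusted p = 0.33) and Dmrta1 at 0.69 ± 0.93.

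Cdkn2c, the gene of p18, was low throughout, at 0.478 to 2.61 CPM at 0 h and 0.465 to 2.1 CPM at 24 h. Its average change was -0.69 ± 0.28 (adjusted p = 0.077), and it was called without iFoxA1 0 h replicate 1 (-0.81, adjusted p = 0.0366) or iFoxL2 24 h replicate 1 (-0.80, 0.0428). All 24 h libraries were below 0 h in 4 lines, and iFoxA1 was mixed. The related INK4 gene Cdkn2d, of p19Ink4d, fell by 0.51 on the log2 scale (-0.51 ± 0.14, adjusted p = 0.018).

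Another 30 genes of the G1 and S phases and of the retinoblastoma and E2F pathway were all tested. Of these, 7 rose, 4 fell and 19 were not called, with a median of 0.11. The same contrast called 37.8% of all genes, 21.7% as risen and 16.1% as fallen. Rb1, the gene of the retinoblastoma protein, rose by 1.25 ± 0.12 (adjusted p = 7.8e-05), from 5.26 to 12.3 CPM at 0 h to 12.5 to 30.1 CPM at 24 h. E2f6 (0.76 ± 0.08) and E2f8 (0.84 ± 0.10), both repressors of the E2F family, also rose, and Ccnh, a subunit of the kinase that activates other CDKs, fell (-0.49 ± 0.07). Cdk2, the partner of cyclins E and A, fell by 0.42 on the log2 scale (-0.42 ± 0.09, adjusted p = 0.0055). Cdk4, the other kinase of D cyclins, was not called (0.11 ± 0.11, adjusted p = 0.50). It was more abundant than Cdk6, at 429 to 594 CPM at 0 h and 427 to 666 CPM at 24 h.

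Of 25 regulators of D cyclins and of the inhibitors, 14 rose, 3 fell and 8 were not called, with a median of 0.47. Over all genes, 21.7% rose and 16.1% fell. Myc, which promotes growth and represses several inhibitor genes, rose by 2.05 ± 0.14, most of all in iFoxC1 (5.67). It was 1.66 to 30.1 CPM at 0 h and 31 to 117 CPM at 24 h. The iFoxC1 change, and its weight in the average, rest on the lone 0 h library of that line, the lowest in Myc. Id2 (3.09 ± 0.22) and Id3 (2.02 ± 0.16), inhibitors of differentiation factors, and Foxo4 (0.77 ± 0.05), a forkhead factor known to activate Cdkn1b, were the others of the 4 with the smallest adjusted p. The 3 that fell were Eed (-0.81 ± 0.13) and Rnf2 (-0.70 ± 0.11), Polycomb subunits known to hold Cdkn2a silent, and Tbx3 (-2.13 ± 0.49), a repressor of Cdkn2a. Other Polycomb subunits rose, Cbx7 by 0.78 ± 0.16 (adjusted p = 0.0038) and Ring1 by 0.37 ± 0.08 (adjusted p = 0.0076), and Bmi1, Ezh2 and Suz12 did not pass the test.

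Markers of other cell types differed between times or lines. The trophoblast list (8 of 9 tested) had 4 genes that rose and none that fell, led by Hand1, which was 0 to 0.29 CPM at 0 h and 1.67 to 41.8 CPM at 24 h, and the list summed to 42.5 to 68.7 CPM at 0 h and 26.1 to 129 CPM at 24 h. The primitive endoderm list (8 tested) had 3 that rose and 1 that fell between the times. Its sum followed the line: in iFoxA1 it was 515 and 524 CPM at 0 h and 585 to 590.2 CPM at 24 h, and in the other 4 lines it was 50.4 to 106 CPM over both times. Of the embryonic stem cell list, 2 rose and 2 fell, and of the 10 fibroblast markers tested 2 rose, with Dcn at 0 to 1.71 CPM at 24 h. Over all genes, the same contrast called 21.7% as risen and 16.1% as fallen. The part of these markers in the changes of the members was not tested.

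For 9 of the members the gene most alike in log2 CPM across the 17 libraries is given, out of 9948 protein-coding genes. The closest were Heatr6 for Cdkn2a (r = 0.954), Gclc for Cdkn2b (0.945), Ttc21b for Cdkn1c (0.938), Glul for Ccnd1 (0.923) and Chaf1b for Ccnd3 (0.919). For Ccnd2, Cdkn1a, Cdkn2c and Cdk6 they were Lamb1 (0.889), Acot7 (0.887), Sgpp1 (0.872) and Zfp61 (0.871). These correlations describe libraries that share their time, line and set.

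Transcript make-up moved with the library set for Ccnd1 and Cdkn1c as well. The 2 retained-intron transcripts of Ccnd1 held up to 7.51% and 6.74% of its counts in the second set, against at most 0.27% and 1.25% in the first. A retained-intron transcript of Cdkn1c, Cdkn1c-204, reached 7.32% in the second set and 0.11% in the first. In TPM, Cdkn1c-204 reached 24.5 in the second set and 0.55 in the first. For Ccnd1, 1 of the 2 retained-intron transcripts reached 27.9 TPM in the second set and 0.74 TPM in the first. The main coding transcript of Ccnd1 was at most 38.8 TPM in the second set and 52.4 TPM in the first at 24 h. All tests of change used counts over all transcripts of a gene. TPM was used for levels between genes, for gene groups and for single transcripts. Where such TPM values are given at both times, they include this difference between the sets.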

How the data were processed

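Salmon 1.4.0 estimated counts and TPM per transcript were made by the authors, per the submitters' processing notes, on build mm10, and DESeq2 1.30.1 is listed there too. The deposited estimated counts and the deposited TPM are not rounded. The strand setting of the counting is not given in the labels. Of 137271 transcripts, 137225 matched GENCODE M21 and were summed by gene symbol, with counts rounded. The members and the lists were chosen with earlier results of these data known. Genes passing filterByExpr (19796) were fitted with edgeR 4.0.16 (R 4.3.3) by the quasi-likelihood test, with TMM scaling and 10 groups of line and time, leaving 7 residual degrees of freedom. An average change weights the 5 lines equally, and an SE is the log2 change over the square root of F. CPM uses TMM-scaled totals. The script was tested on simulated data. Named genes were the members, up to 4 genes per list with the smallest adjusted p in the average change plus those needed to describe a list's split (including every gene that fell among the regulators), and the genes most alike (mean of at least 5 CPM). Alternatives were DESeq2 1.42.0, RLE factors, no filter, the library set as a term (boundary 25 M counts), the first set only, the replicate number as a block, leaving out each of 17 libraries, and, chosen after seeing the data, leaving out both libraries of low transgene level. Replicate numbers were not taken to pair libraries: the correlation of replicate 2 minus replicate 1 between groups was above 0.1 in 6 of 15 pairs, those among the 4 lines whose replicate 2 is in the second set. The level of the iFoxG1 transgene and the gene most like Cdkn1b are not reported here.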

Additional observations from a re-analysis of the deposited data

Results flagged for a closer look

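The change from 0 h to 24 h differed between the lines, in the edgeR F test over the 5 changes, for 4 members. The adjusted p was 0.0182 for Cdkn1c, 0.0219 for Ccnd1, 0.0421 for Cdk6 and 0.0455 for Ccnd2. Cdkn1c had its largest change in iFoxG1, Ccnd1 a log2 change of -0.46 in iFoxA1 that was not called beside called increases in 3 lines, Cdk6 its largest decrease in iFoxG1, and Ccnd2 its largest increases in iFoxC1 and iFoxG1. No member was called in this test without iFoxA1 0 h replicate 1.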

How the results depend on the processing

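The average change called 7 of 10 members, and 7 under DESeq2, RLE factors, no filter, the library set as a term and the replicate block. It called 9 in the first set only and 8 without both libraries of low transgene level, and 6 to 8 when each library was left out in turn. Cdk6 lost its call in 1 of those 17 runs. The residual degrees of freedom in the first set come from iFoxA1 alone, because every other group there is a single library. In the first set only (2 residual degrees of freedom), the counts were 9 for the difference among the changes, 9 among lines at 24 h and 7 at 0 h. There, the counts within iFoxA1, iFoxC1, iFoxG1, iFoxL2 and iFoxP3 were 8, 8, 7, 8 and 6, and the line-specific counts were 8, 7, 5, 4 and 3. Without both libraries of low transgene level these were 8, 9, 5 and, within lines, 8, 8, 7, 6 and 5, the line-specific counts of iFoxA1, iFoxC1, iFoxG1 and iFoxL2 being 6, 6, 4 and 2, and the sets at 24 h gave 2. DESeq2 gave 4 among lines at 0 h, 6 within iFoxA1 and 2 specific to iFoxC1. No filter gave 0 between sets, 2 within iFoxA1, 0 specific to iFoxC1, 1 specific to iFoxG1 and 1 within iFoxL2. RLE factors gave 1 specific to iFoxG1 and 1 within iFoxL2. The set as a term gave 5 within iFoxA1 and 5 within iFoxC1. The replicate block gave 0 between sets. The causes were not tested.

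Leaving out each library in turn gave 0 to 5 members for the difference among the changes, 3 to 7 among lines at 24 h, 0 to 5 at 0 h and 0 to 1 between sets. Within lines it gave 1 to 5 for iFoxA1, 1 to 4 for iFoxC1, 3 to 6 for iFoxG1, 0 to 5 for iFoxL2 and 0 to 4 for iFoxP3. The line-specific counts were 0 to 3 for iFoxA1, iFoxC1 and iFoxG1. The average change of Ccnd3 ran from -0.27 to 0.05 and that of Cdkn1b from -0.23 to 0.29, and Cdkn1b was 0.00 with no filter. Depth limits Ccnd2 and Cdkn2c most, which had as few as 7 and 10 counts in a library.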
